A study of Rattus norvegicus with 26 samples.

Results

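The hippocampus of aging rats fed a diet high in vitamin D3 was compared with that of rats fed a diet low in it, across all measured genes. The comparison used 17 of the 26 arrays of the study, 9 from the high diet and 8 from the low diet. The rats were males of the F344 strain (written Fisher 344 in the labels) and were 18 months old. For 5 to 6 months they had eaten a purified AIN-93G diet whose vitamin D3 content was set to 10000 IU/kg (high) or 100 IU/kg (low), and 9 further rats had 1000 IU/kg (control). Each rat gave 1 array of hippocampal RNA, and 1 low sample had been dropped by the submitters for poor RNA. The rats lived in pairs. A number in the array descriptions, taken as the cage, puts the 8 low rats in 4 cages and the 9 high rats in 5. High cage 7 gave 1 rat only. Of 14506 genes with a probe set of their own, 8485 lay at or above the median intensity of all probe sets (6.94 on the log2 scale) and were tested. The question was which genes, functions and gene families differ between the diets.

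Vitamin D3 is a prohormone that is hydroxylated in liver and kidney to calcitriol. Calcitriol binds the vitamin D receptor Vdr, which pairs with the retinoid X receptor Rxra on DNA and induces, among others, Cyp24a1, the enzyme that degrades the hormone. The hippocampus is the part of the temporal lobe needed for forming memories, and its excitatory output leaves through CA1 and the neighbouring subiculum.

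Values are log2 intensities, and a difference is the high mean minus the low mean on that scale as fitted by limma with the cage as a random block. The fitted difference can depart a little from the difference of the group means, since the single rat of high cage 7 is weighted differently from a pair. Array medians lay between 6.92 and 6.96. Markers of hippocampal neurons were well above the median of all probe sets, with Camk2a, a kinase of excitatory synapses, at means of 13.5 on both diets and Prox1, which marks dentate granule cells, at 10.7 on low and 10.6 on high. Ttr, a marker of the choroid plexus, ranged from 6.79 to 11.05 over the rats of both diets, while the choroid markers Kl, Folr1 and Clic6, the striatal markers Drd2 and Adora2a and the blood markers Hbb and Alas2 had means below the intensity limit. The cortical marker Fezf2 was above the limit, with means of 9.31 on low and 9.49 on high. These are bulk tissue samples, in which fewer cells of a type and less RNA per cell cannot be told apart.

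No gene passed the test. At an adjusted p under 0.17, the stricter rate the study named, 0 of 8485 genes (0%) were called, and 0 at 0.31, with a smallest adjusted p of 0.641 (limma, cage block, Benjamini-Hochberg). Before adjustment 447 genes (5.27%) were under p 0.05, of which 272 (3.21%) had the higher mean on high and 175 (2.06%) the lower mean. A p under 0.01 was reached by 64 genes (0.754%) and one under 0.001 by 8 (0.0943%). Taking rats as independent, without the cage block, raised the count at 0.05 to 613. The higher share of the 447 genes was 60.9%, and after centring each array on its median it was 80.1% of 548. Centring also raised the share of all 8485 genes with a higher mean on high, from 55.1% to 61.6%. Filtering out single values beyond 2 SD of a diet's mean, a step the study describes, gave 9 called genes, all with the higher mean on high. The mean of every high cage lay above that of every low cage in 110 genes (1.3%) and below it in 30 genes (0.354%). The p-values given for single genes below are exact, from permuting the 9 cage means of the 2 diets, 2-sided, and the smallest of them was 0.987 after adjustment over all genes. Unadjusted, 61 of the 8485 genes were at the smallest exact permutation p that 126 splits allow, 0.00794, and 395 (4.66%) were under 0.05. Chance alone puts about 1 gene in 126 at that smallest value. The adjusted limma p of every gene other than Slc17a6 and Polr1b was 0.894 or above.

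Differences were small across the whole table. The middle of all genes lay at +0.0052, with 5% of genes below -0.070 and 5% above +0.078, and 55.1% of the fitted differences were above 0. With genes split by level into 4 groups of equal size, the share above 0 was 50.8% in the lowest group and 59.4% in the highest. The median SE was 0.039, and for 97.5% of genes the 95% confidence interval lay within 1.2-fold either way. Only 11 genes (0.13%) had a fitted ratio above 1.2 toward high and 2 genes (0.0236%) toward low.

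**Figure D1:**
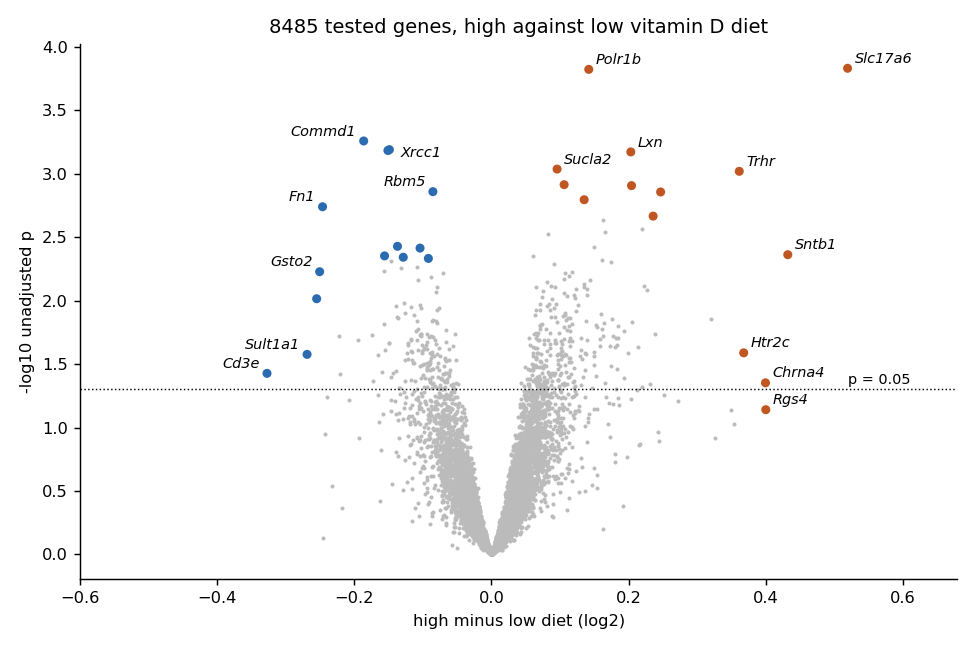
The horizontal axis is the fitted difference, high minus low, in log2 units and the vertical axis is -log10 of the unadjusted limma p; each grey point is 1 of the 8485 tested genes and coloured points are the lead genes in each direction. Slc17a6 (+0.52) and Polr1b (+0.14) lie highest, and no gene passes after adjustment.

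The gene with the smallest p and the greatest difference was Slc17a6, which encodes VGLUT2, a transporter that loads glutamate into synaptic vesicles. On low its lowest, median and highest values were 6.89, 7.19 and 7.44, and on high they were 7.00, 7.71 and 8.02. In 8 of the 9 high rats Slc17a6 lay above every low rat, and the exception was rat 25. The difference was +0.52 (SE 0.12, a ratio of 1.43), with an adjusted limma p of 0.641. The exact permutation gave p = 0.0238, where 126 splits of the 9 cages allow no value under 0.00794. Without rat 25 the limma adjusted p of Slc17a6 was 0.0182. Since rat 25 was the only high rat within the low range, leaving it out lowers this p by construction. Leaving out any other single rat gave no called gene.

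Polr1b, a core subunit of RNA polymerase I, which transcribes ribosomal RNA, came next. It had 8.39, 8.45 and 8.56 on low against 8.49, 8.62 and 8.70 on high as lowest, median and highest values. In 7 of 9 high rats it was above all low rats, and the remaining high rats lay within the low range. The difference was +0.14 (SE 0.032, limma adjusted p = 0.641), and all 5 high cage means exceeded all 4 low ones (exact permutation p = 0.00794, the smallest possible). Another polymerase I subunit, Polr1f, differed by +0.11 (SE 0.043, exact permutation p = 0.0714), but of 30 tested genes of ribosome biogenesis and polymerase I, 16 were higher and 14 lower, with a median of +0.0027.

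Sucla2, a subunit of the succinyl-CoA ligase of the TCA cycle, and Dner, a transmembrane Notch ligand of neurons, had small and regular differences. Sucla2 had 11.07, 11.11 and 11.23 on low and 11.16, 11.21 and 11.26 on high. Its rats overlapped, since 1 low rat lay among the high rats, but its cage means did not, with a difference of +0.096 (SE 0.026, exact permutation p = 0.00794). For Dner the values were 10.18, 10.21 and 10.28 on low and 10.25, 10.33 and 10.46 on high, with 6 of 9 high rats above all low rats and a difference of +0.11 (SE 0.029, exact permutation p = 0.00794). Further genes among the 10 of smallest p toward high were Lxn, encoding the carboxypeptidase inhibitor latexin (+0.20), the neuronal calcium sensor Hpcal1 (+0.25), the synaptophysin-like Sypl2 (+0.20), the GTPase-like Rabl3 (+0.14) and the heme-binding Hebp2 (+0.24). None of them passed the adjusted test.

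Toward low, Rbm5, a splicing regulator of the RNA-binding motif family, was the only gene of the 8485 (0.0118%) whose high and low rats did not overlap. Rbm5 had 10.20, 10.22 and 10.29 on low against 10.09, 10.15 and 10.18 on high. All 9 high rats were below all 8 low rats, by a difference of -0.085 (SE 0.024, limma adjusted p = 0.894, exact permutation p = 0.00794). The gap was narrow, from 10.1953 in the lowest low rat to 10.1845 in the highest high rat. After quantile normalization the rats of Rbm5 overlapped, and the count of genes without overlap was 0. The control rats averaged 10.23, like the low rats at 10.22, but spread from 10.14 to 10.31. The 10.14, from control rat 9, lay within the range of the high rats.

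Commd1, which takes part in copper export and NF-kappa B regulation, had the smallest p toward low. It had 7.80, 7.89 and 7.99 on low and 7.60, 7.69 and 7.83 on high, and 6 of 9 high rats were below every low rat. The difference was -0.19 (SE 0.048, exact permutation p = 0.0159). Xrcc1, a scaffold of DNA single-strand break repair, had 8.42, 8.48 and 8.73 on low against 8.23, 8.37 and 8.48 on high (-0.15, SE 0.039, exact permutation p = 0.0159), and the 8.73 came from rat 4, apart from all others. Prom1, encoding the membrane glycoprotein prominin-1, was below all low rats in 8 of 9 high rats (-0.15, SE 0.039, exact permutation p = 0.0317). For Fn1, the matrix protein fibronectin, the low rats spread from 8.56 to 9.08 and the high rats from 8.39 to 8.67, with a difference of -0.25 (SE 0.072, exact permutation p = 0.0238).

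**Figure D2:**
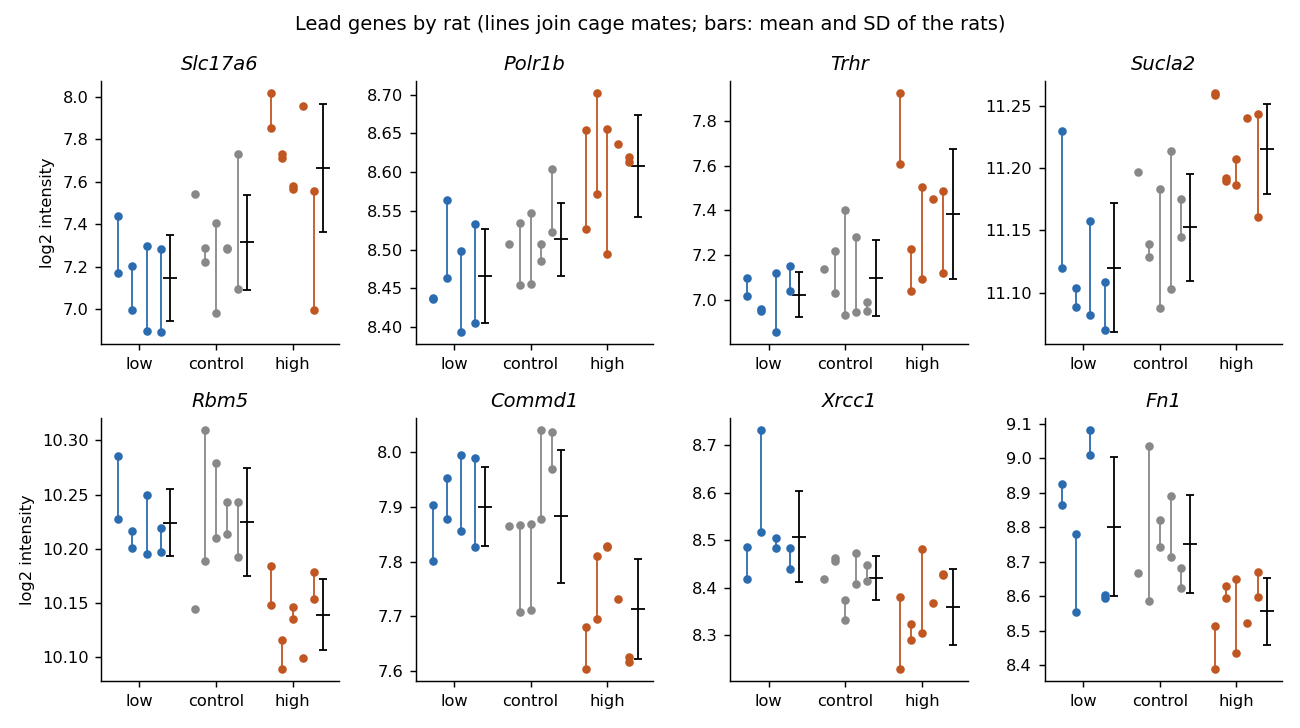
Each panel gives the log2 intensity of 1 gene in every rat, by diet; points are rats, vertical lines join cage mates, and the black bars give the mean and SD of the 8 low, 9 control and 9 high rats. In Rbm5 all high rats lie below all low rats, in Slc17a6 one high rat, rat 25, lies at 7.00 among the low rats, and cage mates in Fn1 and Trhr differ visibly.

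Rats 19 and 25 of the high diet set the ends of the genes with the greatest differences. Of the 11 genes more than 1.2-fold higher on high, rat 19 was the highest high rat in 11 and rat 25 the lowest in 9. Besides Slc17a6 these genes were Sntb1 (syntrophin beta 1), Rgs4 (a brake on G protein signalling), the nicotinic receptor subunits Chrna4 and Chrna5, the serotonin receptor Htr2c, the thyrotropin-releasing hormone receptor Trhr, the neurexophilin Nxph3, the calcium pump Atp2b4, the potassium channel subunit Kcnf1 and the peptide Grp. Rgs4 in rat 19 was 10.4 and in rat 25 it was 8.96, against 8.99 to 9.46 in the low rats. Chrna4 was 8.06 in rat 19 and 6.74 in rat 25, and the low rats lay between 6.81 and 7.11. Control rat 17 lay above every high rat in both genes, at 10.96 for Rgs4 and 8.53 for Chrna4. In Htr2c it did not, at 9.38 against 10.29 in rat 19. Over all tested genes rat 19 was the highest high rat in 10.9% and the lowest in 22.1%, and rat 25 in 10.9% and 10.2%.

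The fit was repeated without both rats, as an alternative added after seeing the data. These rats were picked as ends of the high range in most genes more than 1.2-fold higher, so leaving both out narrows that spread by construction. In Rgs4, Chrna4 and Htr2c they are opposite ends, so a similar difference without them was largely set in advance. Slc17a6 then differed by +0.56 with an adjusted limma p of 0.0489, and it was the only gene called. Rgs4 differed by +0.39 without the 2 rats and by +0.40 with them. Chrna4 differed by +0.38 without them and by +0.40 with them, and Htr2c by +0.38 and +0.37. Atp2b4 went from +0.35 to +0.25. The greatest differences toward low were in Cd3e, a T cell receptor component (-0.33), Sult1a1, a sulfotransferase (-0.27), Prlhr, the receptor of prolactin-releasing peptide (-0.26), and Gsto2, a glutathione transferase (-0.25), beside Fn1. Rat 19 was the lowest high rat in Cd3e (6.23), Prlhr (7.40) and Gsto2 (7.83), but not in Sult1a1 or Fn1. Sult1a1 was 9.69 and 9.76 in low cage 8 but 8.67 and 8.71 in low cage 9, against 8.65 to 9.29 on high. Prlhr was 8.44 and 8.10 in low cage 8 but 7.55 and 7.61 in low cage 9, against 7.40 to 7.97 on high.

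Genes of vitamin D handling themselves differed little. Vdr had 5.19, 5.29 and 5.44 on low and 5.17, 5.27 and 5.32 on high, and was below the intensity limit, so it was not tested. Cyp24a1 (means 5.39 and 5.36), Cyp27b1, the enzyme that makes calcitriol (5.89 and 5.88), and Cyp27a1, a sterol hydroxylase (6.52 and 6.59), were below the limit too. Rxra had a difference of +0.053 (SE 0.053, exact permutation p = 0.294), with overlapping rats. Of 12 tested genes of vitamin D handling and response 7 were higher on high and 1 was at an unadjusted p under 0.05, and the median was +0.0043. That gene was Dhcr7, which turns the vitamin D precursor into cholesterol (+0.15, SE 0.059, exact permutation p = 0.159).

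Markers of the subiculum and entorhinal cortex, the areas that lie next to CA1, formed the list with the highest median. Of 15 tested genes 13 were higher on high and 2 lower, 6 were at an unadjusted p under 0.05 toward high and 1 toward low, and the median was +0.17, against +0.0052 over all genes. The mean of the list was 8.71, 8.80 and 8.84 in the low rats and 8.66, 8.96 and 9.15 in the high rats as lowest, median and highest. Rat 25 was below every low rat and rat 19 was the highest of all, and 4 of 5 high cages lay above all low cages. Slc17a6, Trhr, Lxn and Fn1 are members, and Fn1, which marks subicular cells and also matrix, ran the other way. Nxph3 (+0.35), Tpbg, an adhesion glycoprotein (+0.24), and Rxfp1, the relaxin receptor (+0.17), were higher, while Cbln4, a synaptic organiser, differed by -0.014. Without rats 19 and 25 the count was again 13 of 15, with a median of +0.15 and 9 genes at an unadjusted p under 0.05 toward high. Since those rats were the opposite ends of the high rats in this list, leaving both out narrows its spread by construction.

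The list had been drawn up with earlier results of these data known. Among its 8 members not named in those results, 7 were higher, 0 were at an unadjusted p under 0.05 (limma) and the median was +0.14. Of 12 tested genes of the neighbouring cerebral cortex 8 were higher (3 at p under 0.05, median +0.043), and their mean ranged from 9.41 to 9.48 in low rats and from 9.44 to 9.54 in high rats. Among the 8 cortical genes not named in earlier results, 4 were higher, 0 were at an unadjusted p under 0.05 (limma) and the median was +0.010. Of 9 tested genes of thalamus and habenula 7 were higher (3 at p under 0.05, median +0.028). Their mean was 8.80 to 8.93 on low and 8.81 (rat 25) to 9.07 (rat 19) on high. Without the 3 named earlier, 4 of 6 were higher, 0 were at an unadjusted p under 0.05 (limma) and the median was +0.015. Of 10 tested genes of striatum and septum 6 were higher, a share near that of all genes, with a median of +0.0096 that was -0.0026 without rats 19 and 25, with 4 of 10 higher. Several of these genes, Slc17a6, Trhr, Nr4a2 and Fezf2 among them, stand in more than 1 of the lists. The thalamic marker Lef1 was below the intensity limit, with means of 6.79 on low and 6.70 on high. Prkcd, another thalamic marker, was just above the limit and had 7.01 on low and 6.97 on high. The part of how the tissue was dissected in these differences was not tested.

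Markers of CA1 ran the other way, with 3 of 12 higher, 1 at an unadjusted p under 0.05 in each direction and a median of -0.037, or -0.021 over the 8 not named in earlier results. Wfs1, which labels CA1 pyramidal cells, had 12.02, 12.17 and 12.35 on low and 10.99, 12.06 and 12.19 on high. The 10.99 was rat 19, the rat highest in the subicular list, and the difference was -0.24 (SE 0.12, exact permutation p = 0.119). Lypd1, a modulator of nicotinic receptors, was the CA1 marker toward high (+0.18, exact permutation p = 0.0238), and Tle1, a corepressor, the one toward low (-0.12, exact permutation p = 0.151). Of 8 dentate granule cell markers 2 were higher, with a median of -0.040 and 0 at an unadjusted p under 0.05 (limma). CA3 and CA2 markers had 6 of 16 higher and a median of -0.0040, which was above 0 after centring on array medians.

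**Figure D3:**
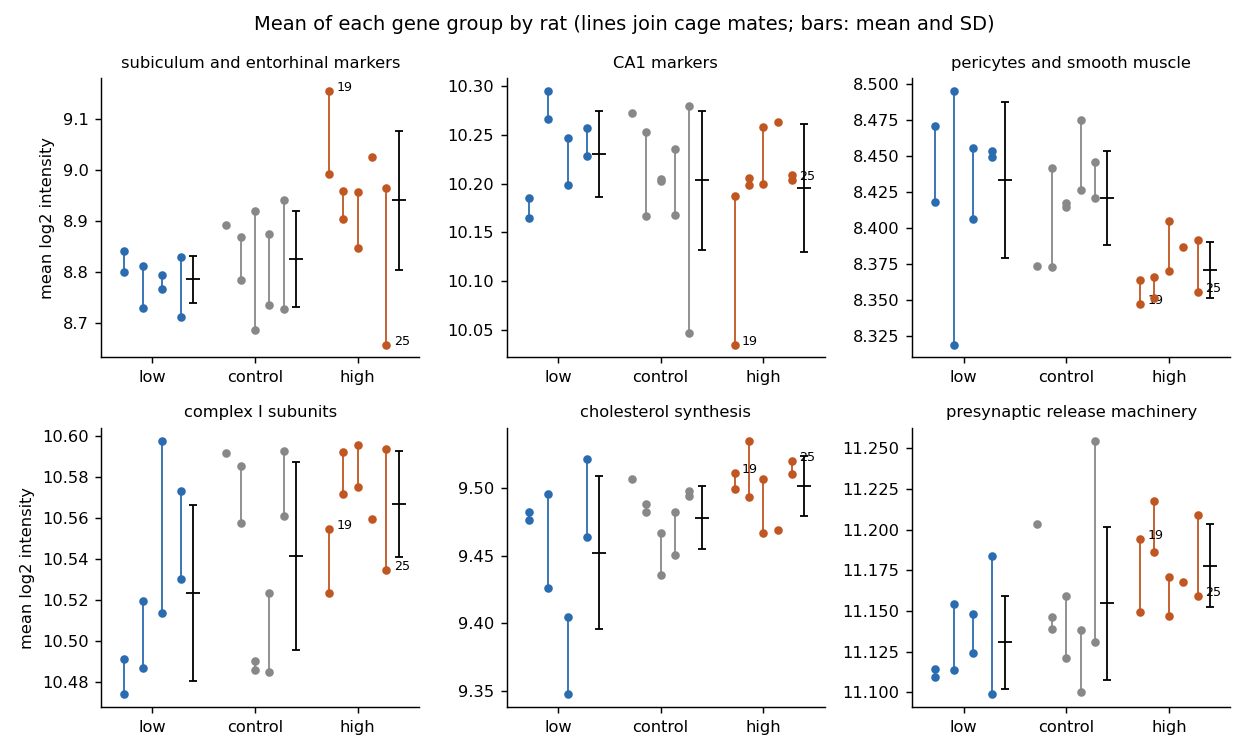
Each panel gives the mean log2 intensity of the tested genes of a group in every rat, by diet, with lines joining cage mates and black bars for mean and SD; the numbers mark rats 19 and 25 of the high diet. Rat 19 is highest in the subicular list and lowest in the CA1 list, and in the pericyte list the high rats lie between 8.35 and 8.40, below 7 of the 8 low rats.

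Genes of energy metabolism were mostly higher on high by small amounts. Of 33 tested subunits of complex I, which takes electrons from NADH into the respiratory chain, 29 were higher (87.9%, against 55.1% of all genes), 3 were at an unadjusted p under 0.05 and the median was +0.036. The mean of these subunits was 10.47, 10.52 and 10.60 in low rats and 10.52, 10.57 and 10.60 in high rats. All 9 high rats lay above the low mean, while the ranges overlapped. Ndufa7 differed by +0.11 (SE 0.046, exact permutation p = 0.0952) and Ndufs1 by +0.060 (SE 0.026, exact permutation p = 0.0317). Complexes II, III and IV had 18 of 21 higher, with Cox4i1, a subunit of cytochrome oxidase, at +0.069 (exact permutation p = 0.00794), and ATP synthase had 14 of 15, with its catalytic-core subunit Atp5f1a at +0.071 (exact permutation p = 0.0317).

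The pathways that feed the chain ran the same way. In the TCA cycle and pyruvate entry 18 of 21 genes were higher (2 at p under 0.05, Sucla2 and the citrate synthase Cs, median +0.027), and in glycolysis 16 of 19 (0 at an unadjusted p under 0.05 by limma, median +0.036). Mitochondrial carriers had 25 of 31 higher, with the iron importer Slc25a37 at +0.16 (exact permutation p = 0.0397). Mitochondrial ribosomal proteins had 42 of 64 higher (median +0.023), whereas cytosolic ribosomal proteins had 39 of 67 (median +0.0054), close to the share over all genes. No gene of these groups passed the adjusted test. These groups hold many genes of high level, and in the highest of the 4 level groups 59.4% of genes were higher.

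Cholesterol synthesis, the pathway whose last precursor is also that of vitamin D, had 15 of 18 tested genes higher and a median of +0.057. Dhcr7, Sc5d and Nsdhl were at an unadjusted p under 0.05, and 0 genes toward low. Among the 13 genes not named in earlier results, 10 were higher, 0 were at an unadjusted p under 0.05 (limma) and the median was +0.054. Dhcr7 had 8.25, 8.48 and 8.72 on low and 8.44, 8.65 and 8.77 on high. Nsdhl, a sterol dehydrogenase, had 10.96, 11.05 and 11.17 on low against 11.05, 11.15 and 11.20 on high (+0.070, SE 0.031), and Fdps, the farnesyl diphosphate synthase, differed by +0.10 (SE 0.050, exact permutation p = 0.0714). The mean of the pathway was 9.35, 9.47 and 9.52 in low rats and 9.47, 9.51 and 9.54 in high rats. The lowest rats were those of low cage 8, and 3 of 5 high cages lay above all low cages. Genes of cholesterol regulation and transport had 11 of 19 higher and a median of +0.0050.

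Promoter sequences of this pathway are shown because its genes are known to share CCAAT boxes, the binding letters of NF-Y. Of the 15 genes with an entry in RefSeq (build GRCr8), 12 held CCAAT on either strand within 250 bases before the start, or 80.0%, against 35.7% of 7102 tested genes with an entry. Among genes at an unadjusted limma p under 0.05, CCAAT was in 34.4% toward high and 35.4% toward low, near the share of all. The sterol element core CACCCCAC, another of the 8 patterns searched, was in 1 of the 15 (6.67%), against 2.04% of all. The patterns searched were chosen after the differences were seen, and a match is a description of letters only. The stretches are the 100 bases before the start, 5′ to 3′ on the gene's strand, with CCAAT or its reverse complement ATTGG in capitals. They are Nsdhl at chrX:155817260-155817359 on the + strand, Fdps at chr2:176804817-176804916 on the - strand and Dhcr7, without a match, at chr1:208444334-208444433 on the + strand.
Nsdhl: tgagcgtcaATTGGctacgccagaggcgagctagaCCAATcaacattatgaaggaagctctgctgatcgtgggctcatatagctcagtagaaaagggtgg
Fdps: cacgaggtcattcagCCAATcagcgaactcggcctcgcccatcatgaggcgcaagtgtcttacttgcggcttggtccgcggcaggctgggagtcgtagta
Dhcr7: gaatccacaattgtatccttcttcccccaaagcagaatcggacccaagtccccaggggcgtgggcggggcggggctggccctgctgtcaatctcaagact

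The hexamers AGGTCA and GGTTCA, which Vdr and Rxra can bind, were searched in the same windows, on both strands. Other hexamers that these receptors bind were not searched, so pairs holding them were not counted. AGGTCA was in 9.63% of the 7102 promoters, in 9.17% of the 218 promoters of genes at p under 0.05 toward high and in 8.84% of the 147 toward low. GGTTCA was in 7.70% of all, 10.1% toward high and 7.48% toward low. Pairs of these hexamers 3 letters apart, the spacing of classical vitamin D response elements, were in 1 promoter of 7102 over the 4 orders searched. Slc17a6 and Polr1b held neither hexamer, and Sucla2 held GGTTCA on its reverse strand. Here the stretch of Slc17a6 at chr1:110348347-110348446 on the + strand is followed by that of Sucla2 at chr15:55161794-55161893 on the + strand, with the match in capitals as TGAACC.
Slc17a6: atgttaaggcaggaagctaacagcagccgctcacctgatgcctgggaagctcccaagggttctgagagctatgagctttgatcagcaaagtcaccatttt
Sucla2: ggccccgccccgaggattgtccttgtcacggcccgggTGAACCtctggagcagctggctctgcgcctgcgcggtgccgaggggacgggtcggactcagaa

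Genes of vesicle release and scaffolds of the postsynaptic density had medians of opposite sign. Of 32 tested genes of vesicle release 26 were higher (2 at an unadjusted p under 0.05 toward high, 1 toward low), with a median of +0.035. Among the 27 not named in earlier results, 21 were higher, 0 were at an unadjusted p under 0.05 toward high (limma) and the median was +0.015. SNARE proteins, which fuse vesicles with their target membrane, had 14 of 28 higher and a median of +0.00021, below 0 after quantile normalization. Beside Slc17a6, Synj1, a phosphatase of vesicle recycling, differed by +0.043 (exact permutation p = 0.0159), and Unc13c, a priming factor, by -0.14 (exact permutation p = 0.103). Among postsynaptic scaffolds 8 of 26 were higher, the median was -0.017, and Lrrc7, encoding densin, differed by -0.070 (SE 0.024, exact permutation p = 0.0317). Lrrc7 had 11.73, 11.77 and 11.84 on low and 11.63, 11.70 and 11.76 on high, so 7 of 9 high rats were below all low rats.

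Receptor and channel families were mixed. Acetylcholine receptors had 7 of 9 higher and a median of +0.072, led by Chrna4, Chrna5 and Chrnb2. Of the high rats, rat 19 had the highest mean of this family (9.31) and rat 25 the lowest (8.95). Over 12 alternative settings the median of the family lay between +0.019 and +0.079. Chrnb2, the partner subunit of Chrna4, had 10.94, 11.02 and 11.03 on low and 10.99, 11.07 and 11.16 on high (+0.071, SE 0.031, exact permutation p = 0.0159). Potassium channels had 36 of 55 higher (3 at p under 0.05 toward high, 1 toward low, median +0.027), with Kcnq5, a subunit of the M-current, at +0.085 (exact permutation p = 0.0317). GABA receptor subunits had 9 of 11 higher. Ionotropic and metabotropic glutamate receptors had 10 of 20, with Grin3a, an NMDA receptor subunit, at +0.22 (SE 0.067, exact permutation p = 0.0159) and a median of -0.0018 that was above 0 after centring. Voltage-gated calcium channel subunits had 9 of 21 higher and a median of -0.012.

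Families of protein turnover and membrane traffic were mixed. Of 43 tested proteasome subunits and assembly factors 35 were higher (2 at an unadjusted p under 0.05, median +0.026). The subunit Psmb1 differed by +0.065 (SE 0.024, exact permutation p = 0.00794) and the assembly factor Psmg1 by +0.075 (SE 0.026, exact permutation p = 0.0159). Psmg1 had 8.82, 8.90 and 8.93 on low and 8.90, 8.99 and 9.00 on high, with 7 of 9 high rats above all low rats. The proton pump of vesicles and lysosomes, the V-ATPase, had 15 of 17 subunits higher (median +0.028), and clathrin adaptors 17 of 20 (median +0.025). Rab GTPases, which direct vesicles, had 31 of 45 higher and E2 ubiquitin conjugating enzymes 16 of 23. Several other families of these themes lay near or below the 55.1% of all genes. Ubiquitin specific proteases had 19 of 39 higher, tripartite motif and RING finger proteins 35 of 68, autophagy proteins 11 of 20, cathepsins, the proteases of lysosomes, 3 of 10 and exocyst subunits 2 of 9. Vacuolar sorting (VPS) and sorting nexin proteins had 28 of 50 higher, and coat and SEC proteins 19 of 34. From the last of these families, Copg1, a coatomer subunit that coats vesicles between Golgi and endoplasmic reticulum, was above all low rats in 8 of 9 high rats (+0.060, SE 0.019, exact permutation p = 0.0159).

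**Figure D4:**
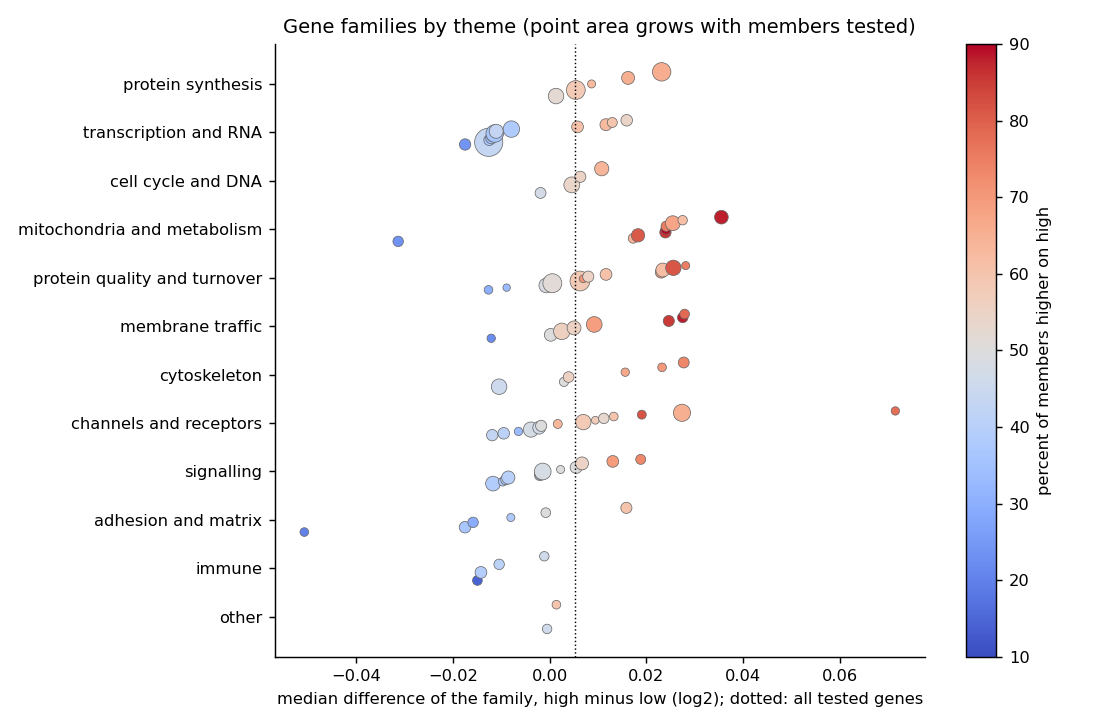
Each point is a gene family with at least 5 tested genes, placed by the median difference of its members (log2, high minus low) and grouped by theme; the colour gives the percent of members higher on high, the area grows with the number of tested members and the dotted line is the median of all tested genes. The medians run from -0.051 in integrins to +0.072 in acetylcholine receptors, and 91 of 95 lie within 0.03 of 0.

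Genes of the vessel wall and matrix were mostly lower on high. Of 6 tested genes of pericytes and smooth muscle, the contractile cells on vessels, 1 was higher and 5 lower, 2 at an unadjusted p under 0.05 toward low, with a median of -0.054. Both of those had been named in earlier results. Their mean was 8.32, 8.45 and 8.49 in low rats and 8.35, 8.37 and 8.40 in high rats. All 9 high rats were below the low mean and all 5 high cages below all low cages, while 1 low rat, at 8.32, was below every high rat. Rgs5, a G protein regulator that marks pericytes, had 9.90, 10.06 and 10.16 on low and 9.78, 9.92 and 10.02 on high (-0.13, SE 0.044, exact permutation p = 0.0159), and Acta2, smooth muscle actin, differed by -0.057 (exact permutation p = 0.103).

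Endothelial genes had 5 of 20 higher and a median of -0.032, with the VEGF receptor Flt1 at -0.098 (SE 0.041, exact permutation p = 0.103) and the transporter Abcg2 of the blood-brain barrier at -0.17 (exact permutation p = 0.206). Meningeal and matrix genes had 2 of 8 higher (median -0.055), led by Fn1, and integrins, the receptors of matrix proteins, 2 of 10 (median -0.051), led by Itgb8 (-0.076) and Itga1 (-0.12). Genes of glucocorticoid response had 5 of 19 higher and a median of -0.056. Leaving out 1 rat or cage moved that median between -0.078 (without low rat 6) and -0.017 (without low rat 4), and without rats 19 and 25 it was -0.032, with 7 of 19 higher. Of these Mt2A, a metallothionein (-0.11), Hsd11b1, which regenerates active glucocorticoid (-0.086), and Sult1a1 were at p under 0.05 toward low, while Tsc22d3, a classical glucocorticoid-induced gene also called GILZ, was toward high (+0.19, SE 0.090, exact permutation p = 0.0635).

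Glial lists had small medians, mostly below 0. Astrocyte genes had 6 of 22 higher (median -0.011) and 0 at an unadjusted p under 0.05 (limma). Their median was above 0 in 4 of 26 fits that left out 1 rat or cage. Oligodendrocyte and myelin genes had 11 of 24 higher, 1 at an unadjusted p under 0.05 toward low and a median of -0.0030, which was above 0 after centring and +0.019 without rats 19 and 25. Oligodendrocyte precursor genes had 8 of 14 higher, near the share of all genes, and a median of +0.0045. That median was below 0 with a stricter intensity filter and in 6 of the 26 fits that left out 1 rat or cage. Microglial genes had 6 of 20 higher and a median of -0.030. Their mean was 9.20 to 9.81 in low rats, where rat 5 held the 9.81, and 9.26 to 9.42 in high rats, and without low rat 5 or low cage 8 the median was above 0. Among nuclear proteins, 21 of 58 splicing factors were higher (3 at p under 0.05 toward low), 5 of 21 RNA-binding motif genes and 68 of 157 zinc finger genes (median -0.013, 7 at p under 0.05 toward low and 1 toward high). Among zinc finger genes Zfp532 had 9.28, 9.37 and 9.48 on low and 9.14, 9.27 and 9.36 on high (-0.11, SE 0.037, exact permutation p = 0.0238).

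**Figure D5:**
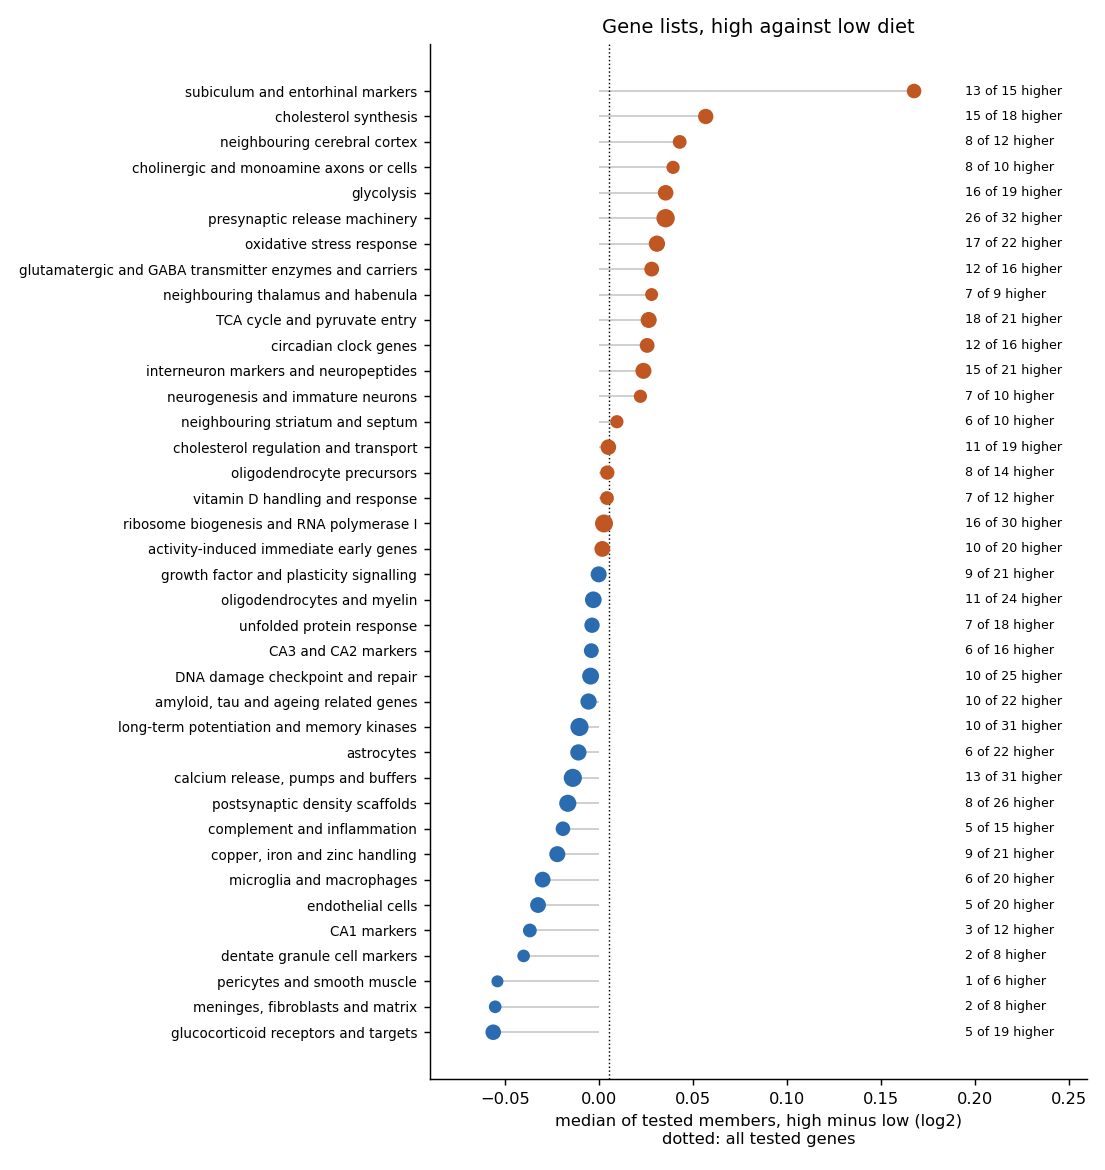
Each row is a gene list with at least 5 tested genes, placed by the median difference of its members (log2, high minus low); the point area grows with the number tested, the text gives how many were higher on high, and the dotted line is the median of all tested genes. The subicular list lies apart at +0.17, and the other 37 lists lie between -0.056 and +0.057.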

How the data were processed

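Hippocampal RNA of 26 rats was measured on Affymetrix Rat Gene 1.0 ST arrays. The values used are log2 intensities of probe sets as deposited. The submitters' processing notes name Partek 6.6 and GCRMA but not what each did. The diet groups came from the labels. The array descriptions hold a number that was taken as the cage, though they do not say so, giving 14 cages, 12 with both rats. The replicates are separate rats, and the number of arrays limits precision.

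Of 29214 probe sets, 15310 had 1 gene symbol, 323 several and 13581 none. Per gene the probe set of highest mean was kept, and means at or above 6.94 were tested. limma 3.58.1 with statmod 1.5.0 in R 4.3.3 fitted the 3 diets over 26 arrays with cage as a random block (correlation 0.136), 2-sided, with Benjamini-Hochberg adjustment over 8485 genes. Named genes were the 10 of smallest p and the 5 of greatest difference per direction, genes whose rats did not overlap, up to 4 members of smallest p per described group, and 5 vitamin D genes; other members were named after their values were seen. The comparison, 40 gene lists and 98 symbol-pattern families were chosen with earlier results of these data known, and 8 patterns were narrowed afterwards to drop symbols outside the family. Groups with 5 or more tested genes were described by counts and medians, with no test. Cage means were compared by exact permutation. The fit was tested on simulated data. Summaries used python 3.11.15 with pandas 2.3.3. Alternatives changed the block, filter, normalization, weights, covariates and rats or cages included.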

Additional observations from a re-analysis of the deposited data

Results flagged for a closer look

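In 164 groups of rats checked for a value far from the others (Dixon's test), 12 were met, and chance flags about 1 in 20 groups. High rat 19 stood apart in 5 of them. Its CA1 marker Wfs1 was 10.99, while the other high rats lay between 11.89 and 12.19, and its mean of the CA1 markers was 10.03, against 10.19 to 10.26. Its mean of memory kinases was 11.30, against 11.35 to 11.39, that of copper, iron and zinc genes 9.58, against 9.63 to 9.67, and its Hpcal1 was 9.88, against 9.31 to 9.50. High rat 25 had Slc17a6 at 7.00, while the other high rats lay between 7.56 and 8.02.

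On the low diet, rat 5 had the highest mean of microglial genes, 9.81 against 9.20 to 9.40, and of complement and inflammation genes, 9.25 against 8.85 to 8.94. Rat 4 had Xrcc1 at 8.73, against 8.42 to 8.52, and a mean of the clock genes of 10.17, against 10.00 to 10.07. Psmg1 in rat 6 was 8.82, against 8.88 to 8.93. The mean of the CA3 and CA2 markers in rat 3 was 9.64, against 9.70 to 9.75. No cause was tested for any of these.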

How the results depend on the processing

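The count of called genes was 0 in every alternative except those named here. After values beyond 2 SD of a diet's mean were taken out it was 9 (Atp2b4, Camk2d, Gabra3, Lxn, Nmbr, Polr1b, Slc17a6, Sntb1 and Sucla2, smallest adjusted limma p 0.0224), with 692 genes at p under 0.05 and 17 whose rats did not overlap; this step narrows the spread by construction. Without high rat 25 or without high cage 10 it was 2 (Lxn and Slc17a6), so leaving out 1 rat or 1 cage gave 0 to 2. Without high rats 19 and 25 together it was 1, with 2 genes whose rats did not overlap. Genes at p under 0.05 numbered 684 with no intensity filter and 238 with a stricter filter at 9.20, with more and fewer genes tested. They numbered 363 to 584 over rats left out and 346 to 663 over cages, the 663 without low cage 9. Genes whose rats did not overlap numbered 0 after quantile normalization, 2 after centring, 1 to 4 over rats left out and 2 to 9 over cages; the cause was not tested. The share of genes with a higher mean on high was 51.4% to 58.0% over rats and 48.0% to 60.4% over cages, the 48.0% without low cage 4. An exact permutation of the cages over all genes, added after seeing the data, gave 395 genes at p under 0.05 and 0 called. No paired analysis was possible because the rats of the diets share no replicate numbers. Array values carry no depth.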

Other observations

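Clock genes and neuropeptides were mostly higher on high. Of 16 tested clock genes 12 were higher, with Dbp, a clock output factor, at +0.16 (SE 0.063, exact permutation p = 0.143) and the core activator Bmal1 at -0.089 (exact permutation p = 0.0476). Of 21 interneuron markers and neuropeptides 15 were higher, with the enkephalin precursor Penk at +0.12 (exact permutation p = 0.0635). Stmn2, a tubulin-binding protein of growing axons, had 11.70, 11.76 and 11.80 on low and 11.78, 11.83 and 11.85 on high, and 6 of 9 high rats lay above all low rats (+0.065, SE 0.023, exact permutation p = 0.0159).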
